A study of Mus musculus with 12 samples.

Results

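The 4 genes described here carry or sense bile acids: Slc51a and Slc51b, the subunits of the basolateral exporter OST; Slc10a2, the apical uptake carrier; and Nr1h4, the bile acid receptor FXR. They were taken by symbol from the deposited tables, which hold all 4 among 11614 genes. The material was RNA of the kidney cortex, sequenced in 12 libraries that form 4 groups of 3, all from C57BL/6J mice. Control mice received a normal diet and corn oil, and NASH mice a Western diet (WD) and the liver toxin CCl4, for 12 or 24 weeks. NASH is non-alcoholic steatohepatitis, a fatty and inflamed liver, and the study asked what accompanies it in the kidney. The groups held 6 mice each at 12 weeks, 8 control and 10 NASH mice at 24 weeks, males and females in equal number. Diet, CCl4 and liver disease differ together between the groups and cannot be told apart. The labels do not tie a library to an animal, a pool or a sex, so each p measures the spread between these libraries, which may be technical.

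Bile acids are made from cholesterol in the liver and recovered from the gut. The small part that reaches the blood is filtered at the glomerulus, taken back across the brush border of the proximal tubule by the sodium-coupled carrier Slc10a2, and passed to the blood by the Slc51a and Slc51b proteins, which work only as a pair. Inside cells, bile acids activate Nr1h4, which binds DNA with a retinoid X receptor and is known to induce Slc51a and Slc51b in gut and liver.

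On mouse build mm10 all 4 genes lie on the minus strand. Slc51a (gene ID 106407) spans chromosome 16 from 32475578 to 32487879, and Slc51b (330962) spans chromosome 9 from 65412753 to 65422773. Slc10a2 (20494) runs from 5083219 to 5105287 on chromosome 8, and Nr1h4 (20186) from 89454234 to 89506658 on chromosome 10. The subunits of the exporter are thus on different chromosomes. Their 250 bases before the annotated start are shown because both genes were higher in NASH cortex. The sequences are RefSeq's for GRCm38.p6 (mm10), whose starts equal those in the files, written 5′ to 3′ on the gene's own strand, with capitals marking AGGTCA, the hexamer that many nuclear receptors bind, or its reverse complement TGACCT.
Slc51a, chr16:32487880-32488129: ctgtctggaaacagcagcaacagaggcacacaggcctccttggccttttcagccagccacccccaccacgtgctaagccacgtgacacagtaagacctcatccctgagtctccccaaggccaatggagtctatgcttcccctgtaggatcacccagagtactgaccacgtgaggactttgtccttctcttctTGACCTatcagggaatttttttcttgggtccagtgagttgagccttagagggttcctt
Slc51b, chr9:65422774-65423023: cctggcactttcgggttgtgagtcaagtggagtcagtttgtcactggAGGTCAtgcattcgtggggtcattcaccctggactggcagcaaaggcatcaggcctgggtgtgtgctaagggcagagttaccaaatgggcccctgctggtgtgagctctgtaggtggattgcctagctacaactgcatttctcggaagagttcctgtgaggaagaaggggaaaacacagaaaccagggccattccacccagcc

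The hexamer occurs once in each of these promoters, as TGACCT from -58 to -53 in Slc51a and as AGGTCA from -203 to -198 in Slc51b. The promoter of Nr1h4 also holds it, as TGACCT from -214 to -209. On either strand it is found in 14.04% of 32536 promoters of this length, so its presence is common. The inverted repeat AGGTCANTGACCT is an exact spelling of the form to which FXR binds with its partner. It and the direct repeat AGGTCANAGGTCA were looked for on both strands too. They matched 2 and 11 of the 32536 promoters respectively, and none of the 4. Exact matches are so rare that their absence does not show that these genes lack a site for FXR, in this window or outside it. These are letter matches and overlap no other motif searched. The window of Slc10a2 is poor in G and C (34.4%, against a median of 52.4% over all promoters). TATAAA was found in 12.31% of promoters and in none of these 4.

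The values are the deposited log2 values, in which a difference of 1 is a 2-fold difference. Back-calculated to reads, Slc51a held 524 to 1828 reads per library, Slc51b 245 to 553, Slc10a2 293 to 1308 and Nr1h4 808 to 4117. Depth ran from 7170000 to 14100000 reads per library. The 3 shallowest were NASH libraries, replicates 2 and 3 at 12 weeks (7170000 and 8230000 reads) and replicate 3 at 24 weeks (8280000), and the others had 10100000 or more. The markers of cortex were present in every library: Slc34a1, the phosphate carrier of the proximal tubule, was at log2 16.33 to 16.93 and the endocytic receptor Lrp2 at 14.58 to 15.28. Replicate 1 stood apart from replicates 2 and 3 in every group. The RNA of the silenced X chromosome, Xist, ranged from 10.60 to 11.54 over the 4 replicate 1 libraries and from 2.97 to 4.86 over the remaining 8. The Y-linked Ddx3y ranged from 2.48 to 4.25 and from 8.95 to 9.62. Same-numbered libraries deviated from their groups together, so each test is given without and with the replicate number as a block. Replicates 2 and 3 also did so across numbers, with a median r of 0.36, against 0.40 for 2 with 2 and 0.43 for 3 with 3.

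By transcript level per kilobase the receptor and both exporter subunits were close to each other, and the uptake carrier was lower. The mean over the 12 libraries on the log2 per-kilobase scale was 10.07 ± 0.71 (SD) for Nr1h4, 9.84 ± 0.70 for Slc51a and 9.75 ± 0.38 for Slc51b, and these 3 neighbours do not differ beyond their spread. Slc10a2 was at 7.60 ± 0.67. Its highest library, at 8.48, lay below the lowest of any library for the other 3 genes, at 8.85. Among all genes, without regard to length, 90.2% had a lower mean than Nr1h4, 84.4% than Slc51a, 72.0% than Slc10a2 and 52.3% than Slc51b.

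**Figure D1:**
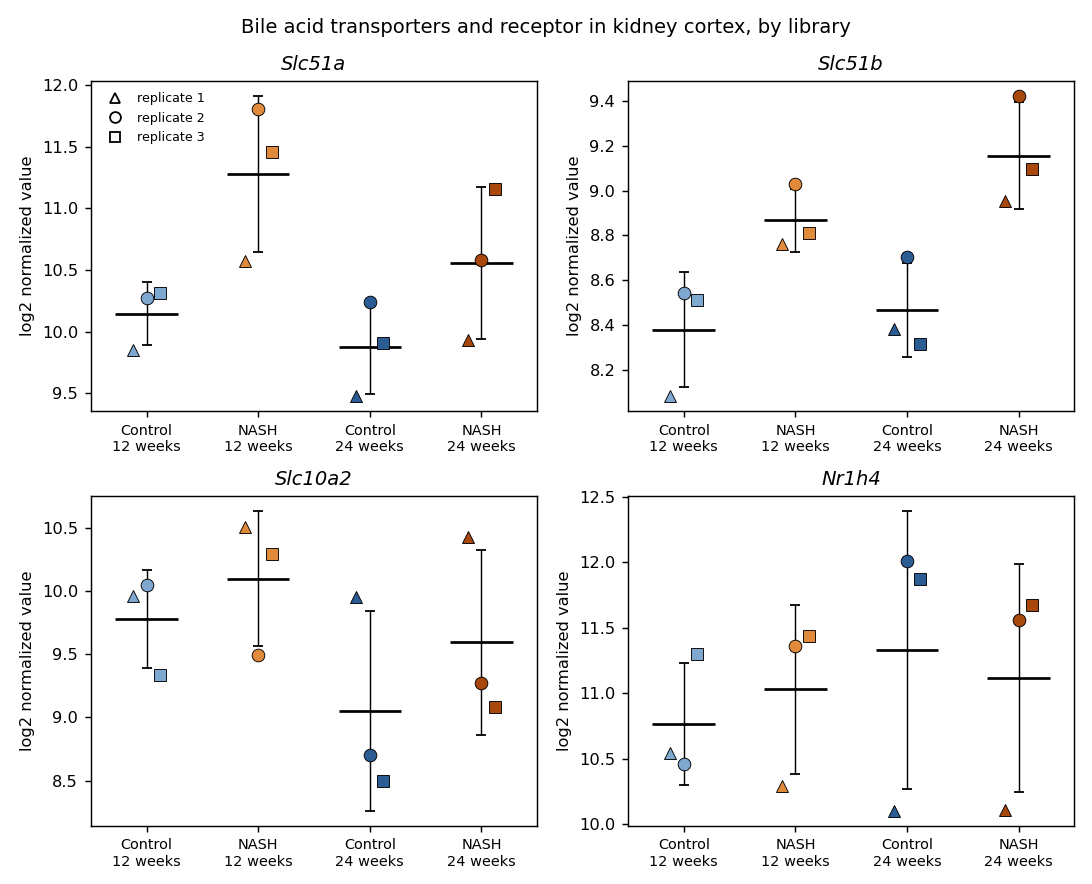
Deposited log2 value (y axis) of each gene in each of the 12 libraries, by group (x axis), with the group mean (bar) and SD (whisker, n = 3); marker shape gives the replicate number. The 3 NASH libraries of Slc51b lie above the 3 control libraries at both times, and replicate 1 (triangles) is the lowest of its group for Slc51a in all 4 groups.

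In NASH cortex at 12 weeks both subunits of the exporter were higher than in controls, Slc51a by 2.19-fold and Slc51b by 1.40-fold. Of the fits without and with the replicate block, both subunits passed the test only with it. The uptake carrier and the receptor passed in neither. Slc51a was at log2 9.85, 10.27 and 10.32 in control replicates 1, 2 and 3 and at 10.57, 11.80 and 11.46 in NASH replicates 1, 2 and 3. All 3 NASH libraries were above all 3 controls, and replicate 1 was the lowest of each group. The control libraries had Slc51b at 8.08, 8.54 and 8.51, and the NASH libraries at 8.76, 9.03 and 8.81, again with no overlap. Of the 4 genes these 2 had NASH libraries that all exceeded the controls, as did 8.14% of all genes.

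The log2 change at 12 weeks was 1.13 for Slc51a (SE 0.36, 95% interval 0.35 to 1.92) and 0.49 for Slc51b (SE 0.18, 0.094 to 0.88). Without the block limma called 0 of the 4 genes, against 0.0517% of all genes, with an adjusted p of 0.268 for Slc51a and 0.287 for Slc51b. With the block it called both exporter genes higher, with a limma adjusted p of 0.00859 for Slc51a (SE 0.18) and 0.0264 for Slc51b (SE 0.12). The block calls 12.9% of all genes, 3.01% on the higher side. The call of Slc51a held without any of the 12 libraries in turn (block adjusted p 0.0080 to 0.046). That of Slc51b was lost without control replicate 1 or 2 or any of the 3 NASH libraries at 12 weeks (adjusted p up to 0.097). Among replicates 2 and 3 alone Slc51a passed (1.34, limma adjusted p = 0.0075) and Slc51b did not (0.39, adjusted p = 0.206).

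The 3 shallowest libraries also held the 3 highest values of Slc51a, at 11.80, 11.46 and 11.16. Without all 3, which leaves NASH replicate 1 alone at 12 weeks and assumes it to vary like the other libraries, the block gave 0.78 for Slc51a (SE 0.17, limma adjusted p = 0.125) and 0.59 for Slc51b (SE 0.21, adjusted p = 0.177) at 12 weeks. Neither was then called, and 0 genes were called in all, with 2416 at an unadjusted p under 0.05. Without the block, where NASH replicate 1 stands against controls of all 3 numbers, the values were 0.43 and 0.38. Depth and replicate number cannot be told apart in them. In the 3 same-numbered pairs free of these libraries Slc51a was higher in NASH by 0.72, 0.45 and 0.34, and Slc51b by 0.68, 0.57 and 0.72. The part of depth in the change of Slc51a was not tested further.

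Slc10a2, the apical carrier, was at 9.96, 10.05 and 9.33 in control libraries at 12 weeks and at 10.51, 9.49 and 10.29 in NASH libraries. The groups overlapped, and NASH replicate 2 lay below 2 of the 3 controls. Its change was 0.32 (SE 0.45, 95% interval -0.67 to 1.30; limma adjusted p = 0.770, and 0.474 with the block). Nr1h4, the receptor, was at 10.54, 10.46 and 11.30 in control libraries and at 10.29, 11.36 and 11.44 in NASH libraries. Here too the groups overlapped, with NASH replicate 1 below every control. Its change was 0.26 (SE 0.56, -0.97 to 1.49; limma adjusted p = 0.853, and 0.548 with the block). With the block the intervals were -0.30 to 0.93 for Slc10a2 and -0.34 to 0.87 for Nr1h4. The intervals without the block include a change as large as that of Slc51a, and those with it end below it but include that of Slc51b, so the libraries do not show that the carrier and the receptor stayed level.

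At 24 weeks the exporter subunits were again higher in NASH libraries, by 1.61-fold for Slc51a and 1.62-fold for Slc51b, but neither passed the test over all genes. Slc51b was at 8.38, 8.70 and 8.31 in control replicates 1, 2 and 3 and at 8.95, 9.42 and 9.10 in NASH. The groups did not overlap, as in 4.56% of all genes. Its change was 0.69 (SE 0.18, 95% interval 0.30 to 1.09), 1.62-fold, with the 9th smallest p of 11614 genes and a limma adjusted p of 0.999. With the block its p was the 6th smallest (SE 0.12, adjusted p = 0.188). At this time limma called 0 genes without the block (0% of all, with 347 at an unadjusted p under 0.05) and 1 with it (0.00861%), none of them one of these 4.

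Slc51a at 24 weeks was at 9.48, 10.24 and 9.91 in control libraries and at 9.93, 10.58 and 11.16 in NASH libraries. NASH replicate 1 lay within the range of the controls, and replicates 2 and 3 lay above it. The change was 0.68 (SE 0.36, -0.10 to 1.47; limma adjusted p = 0.999, and 0.388 with the block), 1.61-fold. Without NASH replicate 3, 1 of the shallow libraries, it was 0.38, or 0.45 with the block. Slc10a2 was at 9.96, 8.70 and 8.50 in control libraries and at 10.43, 9.27 and 9.08 in NASH libraries. In both groups replicate 1 was more than 1 log2 unit above the others, and each NASH library exceeded the control of its number by 0.47 to 0.59. The change of Slc10a2 was 0.54 (SE 0.45; limma adjusted p = 0.999, and 0.561 with the block), and from 0.12 without NASH replicate 1 to 0.99 without control replicate 1. Nr1h4 was at 10.10, 12.01 and 11.87 in control libraries and at 10.11, 11.56 and 11.67 in NASH libraries, with replicate 1 low in both. Its change was -0.21 (SE 0.56; limma adjusted p = 0.999, and 0.830 with the block).

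Averaged over both times, the NASH change of Slc51a was 0.91 (SE 0.25, 1.88-fold) and that of Slc51b 0.59 (SE 0.13, 1.51-fold). With the block both passed, with a limma adjusted p of 0.00980 for Slc51a (SE 0.13) and 0.00972 for Slc51b (SE 0.083), and they ranked 28th and 25th by p among 11614 genes. The block calls 10.4% of all genes, 3.03% higher. Without the block 0% were called (1579 genes at an unadjusted p under 0.05), and the adjusted p was 0.278 for Slc51a and 0.264 for Slc51b. With the block both calls held without any of the 12 libraries in turn, at 0.79 to 0.99 for Slc51a and 0.55 to 0.65 for Slc51b. Among replicates 2 and 3 alone Slc51a passed (1.07, limma adjusted p = 0.0068) and Slc51b did not (0.57, adjusted p = 0.0653). Without the 3 shallowest libraries neither passed with the block, at 0.61 for Slc51a (adjusted p = 0.134) and 0.65 for Slc51b (adjusted p = 0.136). Slc10a2 was at 0.43 (block SE 0.20, adjusted p = 0.177) and Nr1h4 at 0.025 (block SE 0.19, adjusted p = 0.946).

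Set library against library of the same number, NASH exceeded control in 6 of 6 pairs for Slc51a and for Slc51b, in 5 of 6 for Slc10a2 and in 3 of 6 for Nr1h4. No label ties the libraries into pairs beyond their number, and replicates 2 and 3 could be paired otherwise. Over all genes 5.78% were higher in all 6 pairs and 17.9% in 5 or 6. For Slc51a the pairs differed by 0.72, 1.53 and 1.14 at 12 weeks and by 0.45, 0.34 and 1.25 at 24 weeks. The differences of Slc51b were 0.68, 0.49 and 0.30 at 12 weeks and 0.57, 0.72 and 0.78 at 24 weeks. Slc51b was also 1 of the 0.921% of genes with NASH above control and no overlap at both times.

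**Figure D2:**
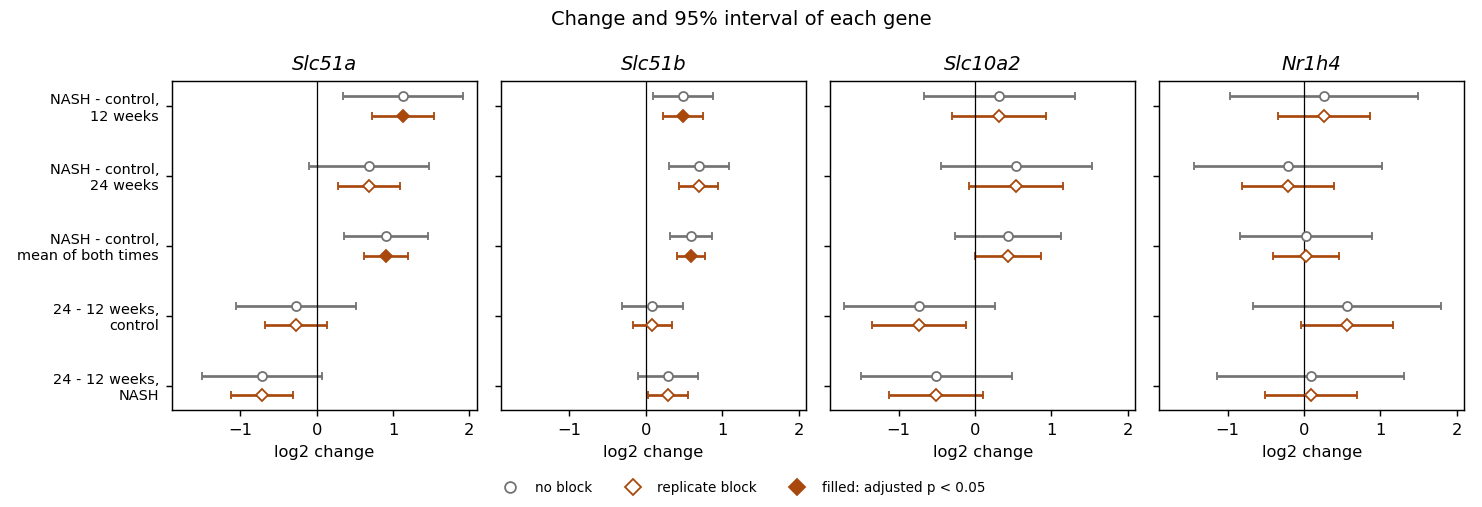
Log2 change (x axis) with its 95% interval for 5 contrasts (rows), without the replicate block (grey circles) and with it (orange diamonds); filled symbols have a limma adjusted p under 0.05. Filled symbols occur for Slc51a and Slc51b alone, with the block, at 12 weeks and for the mean of both times.

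The NASH change did not differ between the times for any of the 4 genes beyond its error. The change at 24 weeks minus that at 12 weeks was -0.45 for Slc51a (SE 0.50, 95% interval -1.56 to 0.66), 0.20 for Slc51b (SE 0.25, -0.35 to 0.76), 0.22 for Slc10a2 (SE 0.63) and -0.48 for Nr1h4 (SE 0.79). The limma adjusted p with the block ran from 0.502 for Slc51a to 0.849 for Slc10a2. Without the block 0% of genes were called (425 at an unadjusted p under 0.05), and 0.00861% with it. The intervals are wide, so equal changes are not shown either.

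The subunits were not in a fixed ratio. In the 12-week controls Slc51a exceeded Slc51b on the log2 per-kilobase scale by 0.11, 0.066 and 0.14 in replicates 1, 2 and 3, nearly equal levels. In NASH at 12 weeks the excess was 0.15, 1.11 and 0.98, so that replicates 2 and 3 held over 1.9 times as much Slc51a as Slc51b and replicate 1 did not. In the 24-week controls the difference was -0.56, -0.13 and -0.066, and in NASH at 24 weeks -0.68, -0.50 and 0.40. The groups at 24 weeks overlapped in this ratio. The 3 highest ratios, 1.11, 0.98 and 0.40, were those of the 3 shallowest libraries, and no NASH library of higher depth exceeded 0.15. The part of depth in the ratio was not tested.

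From 12 to 24 weeks no gene of the 4 was called in either condition. In control mice the change was -0.73 for Slc10a2 (SE 0.45; block SE 0.28, limma adjusted p = 0.184), 0.56 for Nr1h4 (SE 0.56; block SE 0.27, adjusted p = 0.283), -0.27 for Slc51a and 0.087 for Slc51b. Limma called 0% of genes without the block (910 at an unadjusted p under 0.05) and 0.172% with it. Among replicates 2 and 3 alone, where 6.5% of genes were called (2.33% higher and 4.17% lower), Slc10a2 fell by 1.09 (SE 0.27, limma adjusted p = 0.0422) and Nr1h4 rose by 1.06 (SE 0.21, adjusted p = 0.0182). In replicate 1 the same differences were -0.0071 for Slc10a2 and -0.44 for Nr1h4. In NASH mice Slc51a was lower at 24 than at 12 weeks by the values given (-0.72, SE 0.36; block adjusted p = 0.205), and Slc51b was at 0.29 (SE 0.18; block adjusted p = 0.365). Slc10a2 was at -0.51 and Nr1h4 at 0.085. For that contrast 0% of genes were called without the block (553 at an unadjusted p under 0.05) and 0.0258% with it.

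Between replicate 1 and the other 2 replicates 3 of the 4 genes differed. Nr1h4 was 2.29-fold lower in replicate 1 than in replicates 2 and 3 (log2 change -1.20, SE 0.20), Slc51a 1.69-fold lower (-0.76, SE 0.13), and Slc10a2 1.83-fold higher (0.87, SE 0.20). The limma adjusted p was 0.00065 for Nr1h4, 0.00077 for Slc51a and 0.0038 for Slc10a2, and 0.0569 for Slc51b (-0.26, SE 0.10). These 3 calls of 4 stand beside 48% of all genes called, 37.9% higher and 10.1% lower. Slc51a replicate 1 was below replicates 2 and 3 in all 4 groups, as in 7.82% of genes. Nr1h4 was so in 3 of 4 groups, the exception being the 12-week controls, where replicate 2 was lowest. Slc10a2 was above both others in 3 of 4 groups, again with the 12-week controls as the exception. The labels do not say what the replicate number marks. By the Xist and Ddx3y levels above, replicate 1 of each group reads as female RNA and replicates 2 and 3 as male RNA. Sex, animal and preparation still cannot be told apart in these changes.

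The median change of all genes in that contrast was 0.20 as deposited, and 0.0043 under median-of-ratios scaling, which sets each library by the middle of its gene ratios. The split of called genes moved with it, from 4399 higher and 1176 lower to 2414 and 2418. Under that scaling the changes were -1.39 for Nr1h4, -0.95 for Slc51a, 0.68 for Slc10a2 and -0.45 for Slc51b, all with an adjusted p under 0.05. The directions thus held, and Slc51b passed as well (adjusted p = 0.0043, and 0.0026 under quantile normalization). On the deposited scale other cell markers moved with the replicate number. There 5 of 5 podocyte, 5 of 5 endothelial and 6 of 6 loop and distal tubule markers were called higher in replicate 1. In the proximal tubule, on the same scale, Cyp2e1 (-4.11), Slc7a13 (-10.21) and the organic anion carrier Slc22a6 (-1.37) were lower. Cubn (0.32) and Slc5a12 (0.80) were higher, beside the median of 0.20 over all genes. Their part in the values of the 4 genes was not tested, and in whole cortex fewer cells of a type and less RNA per cell cannot be told apart.

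In replicates 2 and 3, libraries with more of the receptor tended to have less of the uptake carrier, but the relation does not pass after adjustment. Over the 8 libraries of replicates 2 and 3, Nr1h4 and Slc10a2 had a Pearson r of -0.74 (permutation p = 0.0356, adjusted p = 0.214 over the 6 pairs of these genes) and a Spearman rho of -0.81 (permutation p = 0.0218, adjusted p = 0.131). Without the 2 libraries farthest from the median of Slc10a2, r was -0.98. The subunits of the exporter had r = 0.57 (permutation p = 0.151, adjusted p = 0.415) and rho = 0.69 (permutation p = 0.0694, adjusted p = 0.208) over the same 8 libraries. Replicate 1 was kept out because it stood apart over all genes, with too few libraries for a correlation of its own. For Nr1h4 and Slc10a2 it was not fully apart, since control replicate 2 at 12 weeks (10.46 and 10.05) lay within its range. Over all 12 libraries r was -0.83 for Nr1h4 with Slc10a2 and 0.61 for the subunits of the exporter. The 8 libraries come from all 4 groups, and the permutations ignored the groups, so group differences enter r, rho and p. In the controls among them Slc10a2 fell by 1.09 and Nr1h4 rose by 1.06 from 12 to 24 weeks. The relation within groups was not tested.

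**Figure D3:**
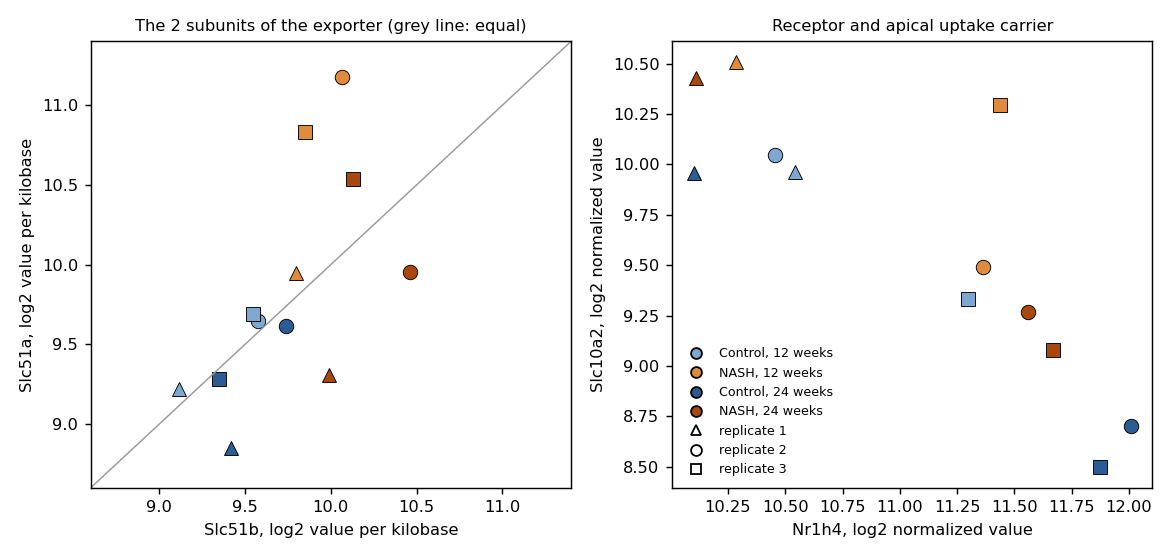
Left, Slc51a against Slc51b, both as log2 values per kilobase, with a grey line at equal levels; right, Slc10a2 against Nr1h4 as deposited log2 values. Each point is 1 of 12 libraries, coloured by group and shaped by replicate number. The 12-week NASH replicates 2 and 3 lie farthest above the line on the left. On the right the replicate 1 libraries are in the upper left, as is control replicate 2 at 12 weeks.

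The genes whose pattern over the 12 libraries was most like that of each gene were taken by Pearson r, as a description over libraries that share groups and scaling. For Slc51a these were Nat8f6 (r = 0.94), Sod3 (0.93) and Taf10, Txndc11 and Wdr8 (0.91 each). After the mean of each replicate number was removed, Nat8f6 remained at 0.97 and Taf10 at 0.96. The pattern of Slc51b was nearest to Polr2j (0.92), Ccdc34 and Mvb12a (0.91 each), Cnppd1 (0.91) and Atxn7l2 (0.90). Slc10a2 was nearest to Sytl2 (0.96), Dkk2, Lifr and Pcp4l1 (0.95 each) and Sostdc1 (0.94). Nr1h4 was nearest to Acot12 (0.95), followed by Aldh9a1, Pcbp3, Aldh3a2 and Cacna1s. After the replicate means were removed, Acot12 was at 0.80, Aldh9a1 at 0.83, Pcbp3 at 0.78 and Aldh3a2 at 0.71. Cacna1s remained at 0.92 and was then the nearest. The genes named for Slc51b were then at 0.88 to 0.92, with Mgst3 (0.94) nearest. Those named for Slc10a2 were at 0.91 to 0.94, with Akr1d1 (0.96) nearest. No gene of the 4 was among the nearest 5 of another.

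The wider bile acid pathway was read through 7 lists by role, of which 50 of 73 genes were measured. At 12 weeks limma called 0 of the 50 without the block. With it 2 were higher, Slc51a and Slc51b, and 4 lower, beside 12.9% of all genes called. The median change of the 50 was 0.024 at 12 weeks and -0.0034 at 24 weeks, against -0.080 and 0.010 over all genes. At 24 weeks 0 of the 50 were called with or without the block.

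Receptors and partners: none of the 6 measured was called in a NASH contrast. In this list and those below, the smallest p is that of the fit without the block. Here it belonged to Rxra, the retinoid X receptor with which FXR binds DNA, at 12 weeks (-0.29, block SE 0.12, block limma adjusted p = 0.118). At 24 weeks it belonged to the vitamin D receptor Vdr (-0.34, block SE 0.20). The list's median was -0.21 at 12 weeks and -0.20 at 24 weeks.

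Among the 8 measured uptake and binding genes none was called either, with medians of 0.27 and -0.090. Pdzk1, a scaffold of brush border carriers, had the smallest p at 12 weeks (0.28, block SE 0.11, block limma adjusted p = 0.108) and the organic anion carrier Slco1a4 at 24 weeks (-0.74, block SE 0.37). The change of Slco1a4 rests on replicate 3 at low values. Its control replicates 1, 2 and 3 were at 5.73, 6.11 and 7.18 and its NASH replicates at 5.63, 5.96 and 5.21.

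The export list went both ways. Of 8 measured genes 2 rose with the block at 12 weeks, both of them subunits of the basolateral exporter, and 2 pumps of other membranes fell, beside 3.01% of all genes higher and 9.85% lower. Abcc4, a pump for organic anions, fell by 0.98 (block SE 0.28, limma adjusted p = 0.0431), and its replicate 1 was high in every group (11.11 to 11.61). Abcg2, a pump for urate and sulphated steroids, fell by 0.38 (block SE 0.11, adjusted p = 0.0492). With each library left out in turn, Abcc4 kept its block call without control replicate 1 or NASH replicate 1 or 3 at 24 weeks or NASH replicate 1 at 12 weeks and lost it in the other 8 fits (adjusted p up to 0.153). Abcg2 kept it without control replicate 1 at 24 weeks and lost it in the other 11 (up to 0.161). Abcc2, an apical conjugate pump, was at -0.48 at both times and passed for the mean of both (block SE 0.12, limma adjusted p = 0.0310), but with a library left out it passed only without control replicate 1 or 2 at 24 weeks or NASH replicate 1 or 2 at 12 weeks (adjusted p up to 0.0798 in the other 8 fits). Abcb11, the bile salt export pump best known from liver, was at 0.45 at 12 weeks (block SE 0.14, adjusted p = 0.0527) and 0.049 at 24 weeks.

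Of 11 listed genes that FXR is known to drive or that belong to its FGF15 axis, 6 were measured. The others were not found by symbol among the 11614 genes. All 6 had a positive NASH change at both times, with a median of 0.29 at 12 weeks and 0.48 at 24 weeks, and 2 of the 6 are Slc51a and Slc51b. Of all genes 40.4% had a positive change at 12 weeks and 52.1% at 24 weeks. The other 4, given here after their values were seen, were not called at either time. Pltp, a phospholipid carrier, was at 0.019 and 0.55, Sdc1, a proteoglycan, at 0.14 and 0.42, and Fgfr4, the receptor for FGF15, at 0.029 and 0.28, with Abcb11 as above. Among replicates 2 and 3 alone the 12-week changes of Pltp (-0.30), Sdc1 (-0.22) and Fgfr4 (-0.13) were below 0.

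Enzymes of bile acid synthesis (10 measured) and conjugation (6 measured) had no call in a NASH contrast. Cyp7b1, an oxysterol hydroxylase of the alternative synthesis route, had the smallest p of its list without the block at 12 weeks (1.72, block SE 1.16). That value rests on few libraries, since NASH replicates 1, 2 and 3 were at 5.71, 8.68 and 12.16 and the controls at 5.60, 9.24 and 6.54. At 24 weeks it was the reductase Akr1d1 (0.48, block SE 0.26). Among the conjugation genes Acnat2 was at -1.04 at 12 weeks (block SE 0.40) and Baat, which joins bile acids to taurine or glycine, at 1.26 at 24 weeks (block SE 0.72). The change of Baat rests on replicate 3 at low values. Control replicates 1, 2 and 3 were at 6.82, 3.00 and 1.89 and NASH replicates at 6.99, 2.90 and 5.61.

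Of 9 measured regulators of these genes 0 rose and 2 fell at 12 weeks with the block, beside 9.85% of all genes lower. The co-repressor Ncor1 fell by 0.63 (block SE 0.10, adjusted p = 0.00859) and was lower for the mean of both times (-0.45, adjusted p = 0.0111). Its 3 controls at 12 weeks were at 11.83, 11.46 and 11.67 and its NASH libraries at 11.09, 11.06 and 10.94, without overlap. The co-activator Ncoa1 fell by 0.40 (adjusted p = 0.0472). With each library left out in turn Ncor1 kept both calls in all 12 block fits, and Ncoa1 lost its call in 12 of 12 (limma adjusted p up to 0.179).

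**Figure D4:**
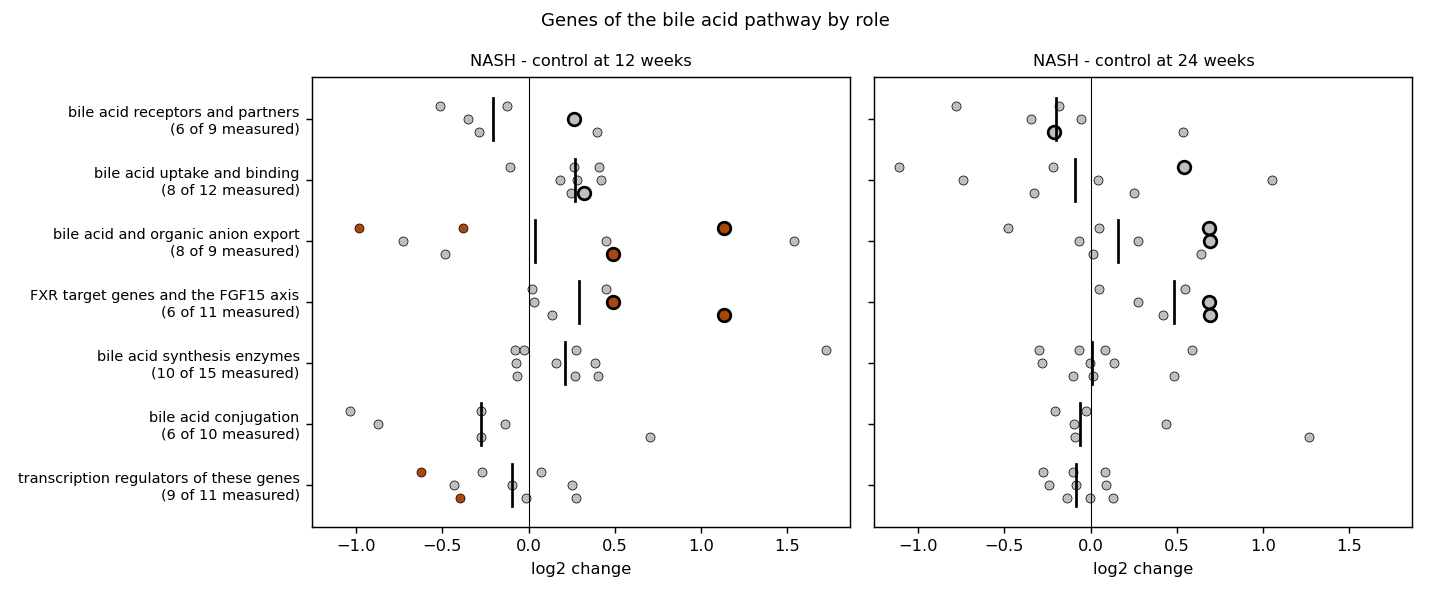
Log2 change of each measured gene of the 7 lists (points, by list on the y axis) for NASH minus control at 12 weeks (left) and 24 weeks (right), with the list median as a black bar; orange marks a limma adjusted p under 0.05 with the replicate block, and thick outlines mark Slc51a, Slc51b, Slc10a2 and Nr1h4. At 12 weeks 6 genes are orange and at 24 weeks 0, and Slc51a and Slc51b appear in both the export and the FXR target list.

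More genes of the pathway were called by replicate number than by NASH, as was so over all genes (48%, against 12.9% at 12 weeks with the block). Between replicate 1 and the others 25 of the 50 genes were called, 15 higher and 10 lower. Of all genes 37.9% were called higher and 10.1% lower. Slco1a1, an organic anion carrier of the brush border, was lower by 8.20 on the log2 scale (SE 0.30), ranging from 3.74 to 5.25 there and from 11.31 to 13.39 elsewhere. Slco3a1 (-1.99), Amacr (-1.59), Slc27a2 (-0.89) and Cyp7b1 (-2.16) were also lower. Baat (3.56), Abcc3 (2.87), Abcc4 (1.54), Acnat1 (1.31) and Abcb1a (1.27) were higher. Ugt1a1 (1.41) and Ugt1a9 (1.38) share exons, so their values are uncertain.

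Bile acid genes are also active in liver and small intestine, so markers of those cells were read beside the exporter. Summed over 7 of 9 listed hepatocyte markers, the level was log2 12.12 to 13.00 in controls and 12.72 to 13.15 in NASH at 12 weeks, and 12.16 to 12.94 and 11.78 to 13.18 at 24 weeks. With the block Ttr (2.77, limma adjusted p = 0.0185) and Apoa2 (1.12, adjusted p = 0.0377) rose and Apob fell (-0.67, adjusted p = 0.0151) at 12 weeks. The median change of the 7 was 1.12 at 12 weeks, with 5 of 7 positive, and 0.56 at 24 weeks, with 6 of 7 positive. The highest single values in the sum were those of Apob (10.62 to 12.78) and Ttr (7.22 to 12.60). Albumin, Alb, was at 7.44 to 10.77 over the 12 libraries with NASH changes of 0.46 and 0.56 (block adjusted p = 0.506 and 0.692). No measured hepatocyte marker was at 0, and Cyp7a1 and Slc10a1 were not found by symbol among the 11614 genes. Of 7 enterocyte markers Vil1, also a protein of the kidney brush border, was at 11.42 to 12.03 and Apoa4 at 2.43 to 8.22. The other 5 were not found by symbol. The NASH change of Apoa4 was 2.94 at 12 weeks (block adjusted p = 0.109) and 1.52 at 24 weeks (block adjusted p = 0.680). Proximal tubule markers summed to 17.55 to 18.09 in controls and 17.60 to 18.11 in NASH at 12 weeks, and 17.50 to 17.90 and 17.52 to 17.88 at 24 weeks, with 0 of 10 called. At 12 weeks, by the block fit, 3 of 6 loop and distal tubule markers were called lower, Calb1 (-1.15), Trpv5 (-0.89) and Slc12a3 (-0.66). The other 3, Umod, Slc12a1 and Pvalb, had positive changes and were not called. Of 4 collecting duct markers 1, Aqp2, was called higher (1.46, limma adjusted p = 0.0270), and 2 of the 4 had a positive change. Of all genes the block called 9.85% lower and 3.01% higher. The 5 adipocyte markers had a median change of 0.64 at 12 weeks and -3.00 at 24 weeks, with 0 called. Red cell markers summed to 10.16 to 10.63 and 10.60 to 12.65 at 12 weeks and to 9.46 to 10.67 and 10.54 to 12.09 at 24 weeks, and macrophage markers to 10.07 to 10.62 and 10.03 to 11.10, then 9.50 to 10.78 and 10.52 to 11.33. The part of these cells in the change of Slc51a and Slc51b was not tested.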

How the data were processed

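BWA, limma and mm10 are what the submitters' processing notes name for the authors' work; their versions and roles are not given in the sources used here. The deposited values are log2 values per gene, 1 table per library, normalized per the file headers. Low values of genes with 1 transcript, below 60 scaled reads, were whole multiples of 1 step per library within 0.01 steps in 97.5% to 100% of cases, so a log2 value is read here as reads times 1 factor (1 to 1.96). Dividing by the factor gave the depth, which sets the counting precision. Every gene reaches 100 scaled reads in a library, so genes were filtered before deposition.

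The deposited log2 values were fitted with limma 3.58.1 in R 4.3.3: 4 group means over 12 libraries, a mean-variance trend, 2-sided tests, Benjamini-Hochberg over 11614 genes, called at an adjusted p under 0.05. A further fit added an indicator of replicate 1. Deviations of all 18 same-numbered pairs correlated above 0.1 (0.19 to 0.74), but replicates 2 with 3 did so too (0.19 to 0.64), and the meaning of a number is not stated; by that correlation the number was also fitted as a block. Alternatives were 2 scalings, 10 added before log2, a minimum mean log2 of 5, replicates 2 and 3 only, and each library left out; the block joined with each scaling, and the 3 shallowest libraries left out, were chosen after seeing the data. Correlations used permutation tests, over 8 libraries.

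The genes, the lists and the tests were chosen with earlier results of these data known. Named pathway genes are those called (up to 25, smallest p first) and, per list, the smallest p at each time without the block. Exceptions are marked. 1 gene of these lists is not reported here and is out of their counts. Promoters come from RefSeq (GRCm38.p6). Values per kilobase use transcript length from the files. Python 3.11.15, numpy 2.4.6, pandas 2.3.3, scipy 1.17.1 and matplotlib 3.10.9 made the tables and figures.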

Additional observations from a re-analysis of the deposited data

How the results depend on the processing

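Of 884 values of Slc51a, Slc51b, Slc10a2 and Nr1h4 under another setting, 789 kept their direction and side of the threshold. The reference was the fit as deposited without the block, which called none of these genes in a NASH or time contrast. A kept side there means not called, so a block call lost when libraries were left out counted as kept. Of the values that did not keep both, most were changed by the replicate number as a block, reading same-numbered libraries as pairs. With the block, the block after median-of-ratios scaling and the block after quantile normalization, the 12-week change was 1.13, 1.22 and 1.17 for Slc51a and 0.49, 0.58 and 0.58 for Slc51b, all called. The mean of both times was 0.91, 0.95 and 0.92 for Slc51a and 0.59, 0.63 and 0.63 for Slc51b, all called. Among replicates 2 and 3 only, Slc51a was called at 12 weeks (1.34) and over both times (1.07), and Slc51b at neither (0.39 and 0.57). There the control time change was called for Slc10a2 (-1.09) and Nr1h4 (1.06), Slc51b turned to -0.019, and Fgfr4 (-0.13), Pltp (-0.30) and Sdc1 (-0.22) turned at 12 weeks. By replicate number Slc51b passed at -0.45 after median-of-ratios scaling and at -0.49 after quantile normalization. Without the 3 shallowest libraries, left out after the data were seen, 0 genes were called for NASH at 12 weeks with or without the block and 1 for the mean of the times with it. There NASH at 12 weeks is replicate 1 alone, so without the block depth and replicate number cannot be told apart. In that fit Nr1h4 turned to -0.48 at 12 weeks and -0.49 for the mean of the times. At 12 weeks Abcc4 (0.66), Ncoa1 (0.070) and Cyp7b1 (-1.41, and -0.33 with the block) turned too. The cause was not tested. The block changed no other call of the 4 genes.

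The number of genes called, as deposited, was 6 for NASH at 12 weeks and 0 in the other NASH and time contrasts. With the block, the block after median-of-ratios scaling, the block after quantile normalization and replicates 2 and 3 only, it was 1494, 1379, 1230 and 385 for NASH at 12 weeks, 1, 1, 1 and 12 at 24 weeks, 1, 1, 4 and 73 for the difference of the times, 1207, 1243, 1161 and 123 for the mean of the times, 20, 4, 32 and 755 for control mice over time, and 3, 1, 4 and 541 for NASH mice over time. Without the block the mean of the times had 1 call under median-of-ratios scaling and 5 under quantile normalization. The higher and lower calls of the block were 350 and 1144 at 12 weeks, 686 and 693 after median-of-ratios scaling, and 532 and 698 after quantile normalization. For the mean of the times they were 352 and 855, 628 and 615, and 534 and 627.

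With each library left out, with or without the block, the calls ran from 0 to 1533 for NASH at 12 weeks, 0 to 4 at 24 weeks, 0 to 29 for their difference, 0 to 1093 for their mean, 0 to 434 for control mice over time and 0 to 170 for NASH mice over time. The 12-week change ran from 0.87 to 1.48 for Slc51a, 0.34 to 0.60 for Slc51b, -0.032 to 0.66 for Slc10a2, -0.13 to 0.65 for Nr1h4, -0.060 to 3.29 for Cyp7b1, -0.17 to 0.14 for Fgfr4, -0.30 to 0.31 for Pltp and -0.18 to 0.66 for Sdc1. At 24 weeks Nr1h4 ran from -0.83 to 0.29 and Abcb11 from -0.040 to 0.13. The difference of the times ran from -0.19 to 0.68 for Slc10a2 and -1.09 to 0.024 for Nr1h4. The mean of the times ran from 0.76 to 1.08 for Slc51a, 0.52 to 0.65 for Slc51b and -0.28 to 0.28 for Nr1h4. Over time Slc51b ran from -0.062 to 0.20 in control mice and Nr1h4 from -0.29 to 0.59 in NASH mice. By replicate number Slc51b ran from -0.31 to -0.20. These fits have fewer libraries.

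Calls by replicate number ended under both scalings for Hsd3b7, Nr1i2 and Sirt1 and under quantile normalization for Scp2. Without the 3 shallowest libraries they ended for Rxrg, Slco2b1, Hsd3b7, Scp2, Nr1i2 and Cyp7b1. They ended without control replicate 1 at 12 or at 24 weeks for Slco1a6, and without most single libraries for Scp2 and Nr1i2. Without the block the 12-week intervals of Slc10a2 and Nr1h4 span the change of Slc51a, and with it they end at 0.93 and 0.87. At 245 to 553 reads, Slc51b has the least counting precision of the 4 genes.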
